A study of Mus musculus with 4 samples.

Results

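RNA that came down with an antibody against Cpeb4 was compared with RNA that came down with rabbit IgG, in erythroblasts of the E14.5 mouse fetal liver. The comparison used the 2 Cpeb4 immunoprecipitate (IP) arrays, from 2 biological replicates, and the 1 IgG array. It took in all probe sets with a gene symbol, which were 23185 of the 25206 on the array, with 1 probe set for each gene. All samples came from liver cells selected with magnetic beads for Ter119, which marks red cell precursors on their surface, and the labels name no strain, genotype or further treatment. The IP was made with an anti-Cpeb4 antibody from Abcam and a commercial RNA immunoprecipitation kit, and the IgG sample with rabbit IgG in place of that antibody. A single array of total input RNA, made with no antibody, is used here as a scale of abundance. The series asks which mRNAs are associated with Cpeb4, and the IgG array stands for RNA recovered without the antibody's specificity. The labels do not say whether the IgG sample shared a cell preparation with either IP replicate, or how many livers were pooled.

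Cpeb4 is a cytoplasmic RNA-binding protein of a family that recognises uridine-rich elements, the cytoplasmic polyadenylation elements, in the 3′ untranslated regions of mRNAs and controls their poly(A) tails and translation. Erythroblasts make large amounts of globin while their nucleus condenses, and control of mRNA that already exists is a known layer of regulation in such cells. Small nucleolar RNAs guide the modification of other RNAs in the nucleolus and carry no poly(A) tail. MicroRNAs are short RNAs that pair with mRNAs through a seed near their 5′ end.

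Values are log2 expression values, and a difference is an IP replicate minus IgG, so that a difference of 1 is 2-fold. A gene is said to have risen or fallen over IgG when it was at least 2-fold from IgG in both replicates and had an adjusted p below 0.05 in limma (Benjamini-Hochberg over 13911 tested genes). All genes past the fold rule also passed the test, with adjusted p-values up to 0.0263, so the fold rule decided the calls. The only residual degree of freedom lay between the 2 IP arrays, and IgG, a single array, was assumed to vary like them. The precision of every difference is therefore limited by the number of arrays. Probe-set values are not compared between genes as amounts of RNA.

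The sequences of 6 microRNA genes are shown first, because members of this class on the array lay below IgG in the IP (values follow later). Mature sequences are from RefSeq (GRCm38.p6), with the seed (bases 2 to 8) in capitals. Mir15a and Mir16-1 share a seed and lie inside the same gene, and both fell. Most other pairs of tested microRNA genes with a shared seed had 1 of 2 fallen, as for AUUGCAC. For ACAUUCA 2 of 2 fell and for GUAACAG 0 of 2. A link between seed and fall was not tested. Mir142, of blood cells, and Mir680-1 fell. Mir144 and Mir451a, a pair known for its abundance in erythroid cells, were not called.
miR-15a-5p: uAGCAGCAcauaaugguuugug
miR-16-5p: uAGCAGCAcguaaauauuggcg
miR-142a-3p: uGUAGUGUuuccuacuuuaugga
miR-142a-5p: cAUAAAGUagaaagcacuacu
miR-680: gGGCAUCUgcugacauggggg
miR-144-3p: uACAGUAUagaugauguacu
miR-451a: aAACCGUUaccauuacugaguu

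In the Cpeb4 IP, 2588 genes rose over IgG and 868 fell. These are 18.6% and 6.24% of the 13911 genes tested, and 74.9% of all calls were upward. Most of the risen genes coded for proteins (2516 of 2588), while 76 of the 85 tested small nucleolar RNAs were among those that fell. At least 8-fold in both replicates, 79 genes were higher, of which 73 coded for proteins, and 46 were lower, of which 38 were small nucleolar RNAs. At 4-fold the numbers were 574 and 119. A further 4381 genes passed limma without reaching 2-fold in both replicates, and 6074 did not pass.

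Each replicate's difference subtracts the same IgG array, so the 2 sets of differences share it. Replicate 1 alone was at least 2-fold above IgG for 2765 genes and below it for 1093, and replicate 2 for 2837 and 1060. Their median differences were 0.07 and 0.09, and the central part of the differences (quartiles) ran from -0.37 to 0.81 in replicate 1 and from -0.35 to 0.83 in replicate 2. For 82.7% of tested genes the replicates lay within 0.25 of each other, a share that counts the 3032 genes whose IP values were equal. Among the other 10879 genes it was 77.9%. For 52 genes the replicates lay at least 2-fold apart. No gene was 2-fold above IgG in one replicate and 2-fold below it in the other, although 652 had differences of opposite sign. The widest gap was that of Ssxb2, a gene of a testis-expressed family, with 5.45 and 3.11 in the IP against 4.05 in IgG. Cma2, a mast cell chymase, had the next widest, with 2.91 and 5.02 against 9.27, and it fell, a call that was lost after quantile normalization again.

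**Figure D1:**
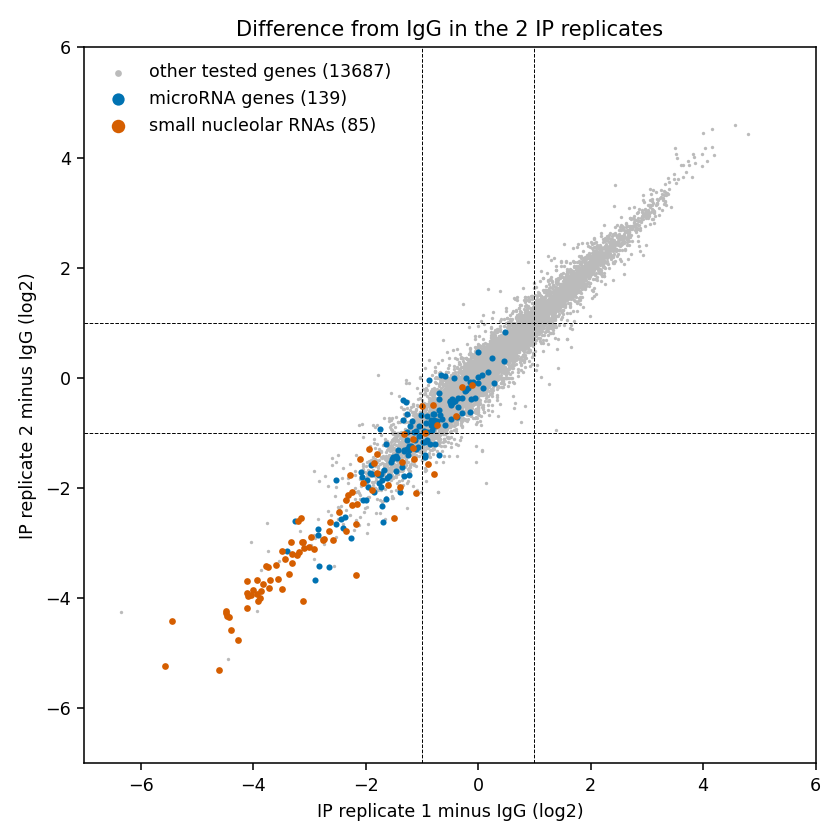
Each point is a tested gene, with its difference from IgG in IP replicate 1 (x axis, log2) and replicate 2 (y axis, log2); dashed lines mark 2-fold. The 85 small nucleolar RNAs (orange) lie below IgG in both replicates, the 139 genes that RefSeq classes as microRNAs (blue) lie mostly below it, and the other genes (grey) extend further upward.

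The IgG array differed from the rest in its spread, although the processing notes name RMA, a method that usually gives arrays normalized together the same distribution. Whether the IgG array was normalized together with the others is not given in the sources used here. Its values had an SD of 1.74 over all probe sets, whereas the SD of input was 2.13 and those of the IP arrays were 2.05 and 2.07. Its median was 4.49, and the other medians were 4.13, 4.15 and 4.17. Of the genes that rose, 1972 had an IgG value at least 1 below input, and of those that fell, 753 had an IgG value at least 1 above input. When the 4 arrays were quantile normalized again, 1745 genes rose (12.5%) and 1253 fell (9.01%), and the upward share of calls was 58.2%. Centring each array on its median gave 1868 risen (13.4%) and 1548 fallen genes (11.1%), an upward share of 54.7%, and moved the median difference of tested genes from 0.08 to -0.17. Of the risen genes, 1591 were still called higher after the second normalization and 1868 after centring, and 757 and 868 of the fallen genes were still called lower. None of the risen genes was called lower after the second normalization (0 genes).

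The difference from IgG followed the abundance of the RNA in the input. In 10 equal bins of the input value, the median difference was -0.50 and -0.48 in the 2 replicates in the lowest bin and 0.83 and 0.84 in bin 9. In the highest bin it was 0.65 and 0.66. Calls followed the same order, with 2.44% of genes higher and 16.5% lower in the lowest bin and 39.7% and 1.87% in bin 9. Quantile normalization again reduced the range of bin medians to between -0.15 and 0.17. Because of this trend, gene lists are read below against both the background of all tested genes and that of the 6956 genes at or above the median input value of 5.78. Of these better expressed genes 2258 rose (32.5%) and 184 fell (2.65%), with medians of 0.63 and 0.66 in the 2 replicates. After the second normalization 1327 of the 6956 rose (19.1%) and 448 fell (6.44%), the background for the numbers given after it below. The part of the narrower IgG array in these differences was not tested.

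**Figure D2:**
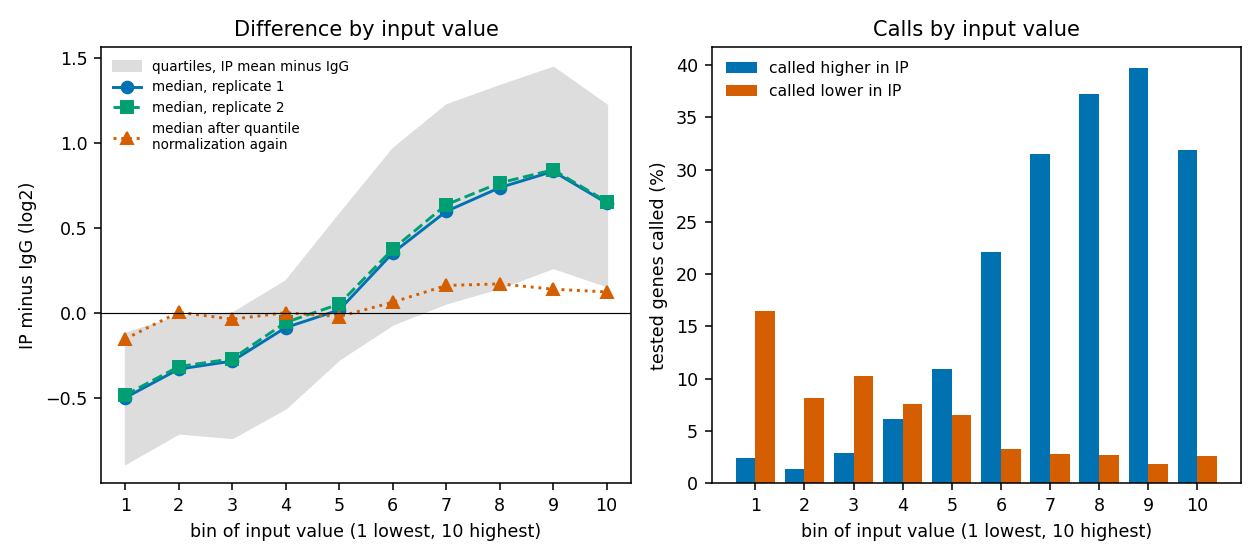
Left, the median difference from IgG (log2) in 10 equal bins of the input value for both IP replicates, with the quartiles of the IP mean (grey) and the median after quantile normalization again; right, the share of tested genes called in each bin. The medians climb from -0.50 and -0.48 to 0.83 and 0.84 in bin 9 as deposited, and stay between -0.15 and 0.17 after the second normalization.

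The largest rises came from genes with low or middling IgG values and clear input values. Cetn2, a centrin of the centrosome and of DNA repair complexes, was at 2.96 in IgG and at 7.52 and 7.54 in the IP, with 7.04 in input. Its difference of 4.57 (SE 0.14, limma adjusted p = 2.96e-05) is 23.8-fold, and both IP values lay far above IgG and just above input. Sms, spermine synthase, was at 4.13 in IgG and at 8.94 and 8.55 in the IP, with an input value between the IgG and IP values. Its rise of 4.61 (SE 0.18, limma adjusted p = 4.22e-05) was the largest mean difference. Nus1, a subunit of the enzyme that makes the dolichol precursor, stood at 5.57 in IgG and at 9.56 and 9.41 in the IP. Cmpk1, a kinase of pyrimidine nucleotides, stood at 5.12 against 8.96 and 9.13. Their rises were 3.91 and 3.92. All of these genes were chosen for the size of their differences from IgG in both replicates.

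Others among the 30 highest had roles in the endoplasmic reticulum, in ubiquitin ligases and in the ribosome. Tmx4, a membrane-bound thioredoxin-like protein of the endoplasmic reticulum, rose by 3.83, and Cnih1 and Tmed5, which act in export from that compartment, by 3.55 and 3.48. Mbtps2, the protease that releases membrane-bound transcription factors in the Golgi, rose by 3.36. Eloc, the elongin C subunit of ubiquitin ligases, was at 5.42 in IgG and at 9.03 and 9.28 in the IP, and Anapc13, a subunit of the anaphase-promoting complex, at 4.51 against 8.07 and 8.13. In these genes the 2 IP values were close together, and their distance from IgG follows from the rule that chose them. Hikeshi, which carries the inducible heat shock protein into the nucleus, rose by 3.64 and Nampt, which makes the NAD precursor, by 3.36. Mtap, of the methionine salvage pathway, was among those with low IgG values and rose by 3.94. Mrpl32, of the large mitochondrial ribosomal subunit, had the lowest IgG value of these, 2.43, and the less even IP values of 5.93 and 6.60.

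**Figure D3:**
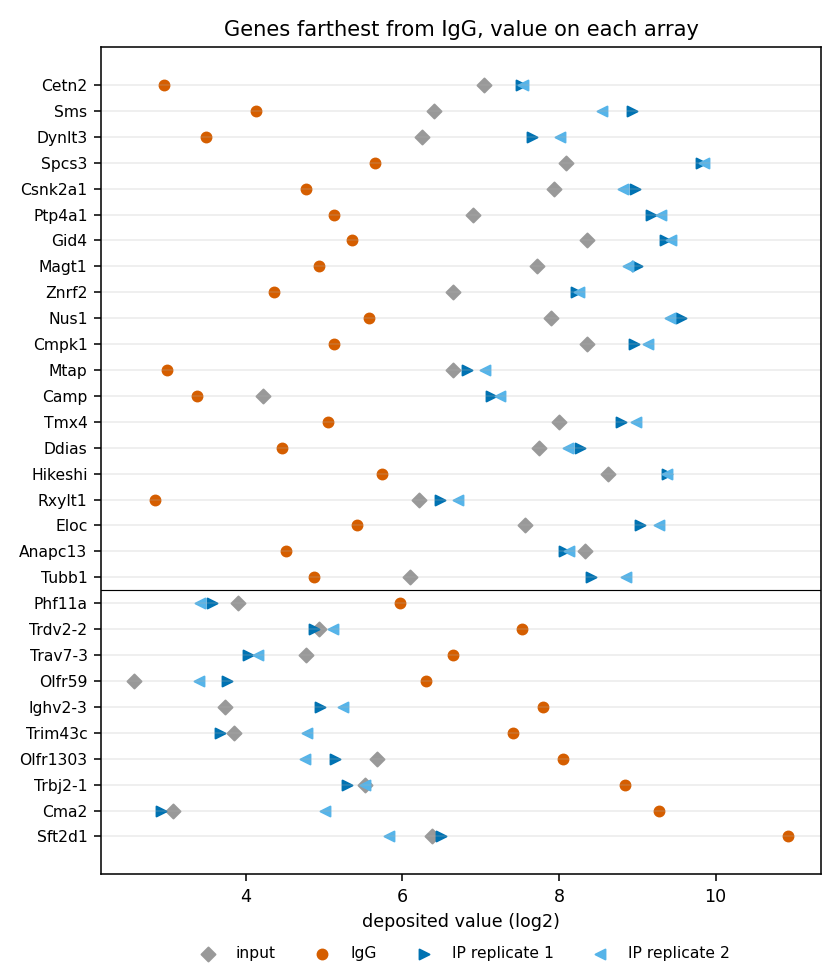
Deposited log2 value on each of the 4 arrays for the 20 genes with the highest and, below the line, the 10 with the lowest difference from IgG (small nucleolar, Cajal body, small nuclear and microRNA genes left out). By the rule that chose the genes, the IgG point lies to the left of both IP points in the upper set. Cetn2, for example, is at 2.96 against 7.52 and 7.54. In the lower set the IgG point lies to the right, as for Sft2d1 at 10.93 against 6.49 and 5.83.

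Rises were not limited to genes near the array's floor in IgG. Among the risen genes, 745 had an IgG value at or above 6.59, the 75th percentile of tested genes on that array, and 1033 lay below its median of 5.48. Snrpe, the E protein of the spliceosomal Sm ring, was at 7.06 in IgG and at 10.40 and 10.38 in the IP. Its rise of 3.33 (SE 0.07) was the highest of those that started from such an IgG value, and it was 2.69 after quantile normalization again. Tmem123, a cell surface mucin-like protein, was at 7.67 against 10.99 and 10.87, and Selenot, a selenoprotein of the endoplasmic reticulum, at 7.21 against 10.31 and 10.39. Next came Ube2l3 and Ube2d3, both ubiquitin-conjugating enzymes, with rises of 2.99 and 2.95, and Rab8b, a GTPase of vesicle traffic, with 2.96. Chtop, a factor of mRNA export, rose by 2.96 and Slain2, which promotes microtubule growth, by 2.94. Rnf11, a RING-finger protein, Nek7, a mitotic kinase, and Eif5a2, a hypusine-containing translation factor, rose by 2.86, 2.93 and 2.85. In all of these the IP values lay close together, and the rule that chose them required both to lie apart from IgG.

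Genes with the highest IP values were mostly at similar values in IgG. Pabpc1, the cytoplasmic poly(A)-binding protein, had the highest IP value, with 13.13 and 13.19 against 12.74 in IgG. Fth1, the ferritin heavy chain, was at 12.67 and 12.75 against 12.81, and Slc4a1, the anion exchanger of the red cell membrane, at 12.12 and 12.16 against 11.94. Car2, a carbonic anhydrase of red cells, was at 12.21 and 12.19 against 11.61. Among the 20 highest, 4 rose: Ccni, a cyclin, by 2.07, Rpl34-ps2, a ribosomal protein pseudogene, by 1.54, Pcbp2, a poly(C)-binding protein, by 1.14, and Ptbp3, a polypyrimidine tract-binding protein, by 1.08. With centring Pcbp2 (0.90) and Ptbp3 (0.83) were no longer called. Rpl34-ps2 may share signal with the gene it copies, and its value is uncertain for that reason. The Cpeb4 mRNA was at 10.90 and 10.93 in the IP against 10.42 in IgG, a difference of 0.50 (SE 0.05, limma adjusted p = 0.000829) that passed the test but not the fold rule.

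Enzymes of the tricarboxylic acid cycle and of pyruvate dehydrogenase had the largest share of risen members, with values as deposited, among the lists with at least 11 tested genes. Of 24, 17 rose (70.8%) and 0 fell, with medians of 1.48 and 1.46 in the replicates. After the second normalization 10 of 24 rose and 0 fell, and the list for protein entry into the endoplasmic reticulum, with 14 of 33, had a slightly larger share. Pdha1, the catalytic subunit of pyruvate dehydrogenase, was at 4.38 in IgG and at 7.69 and 7.74 in the IP. Idh3a, of mitochondrial isocitrate dehydrogenase, rose by 3.01, and Mdh1, the cytosolic malate dehydrogenase, by 2.33. Its mitochondrial counterpart Mdh2 was at 8.98 in IgG and at 9.05 and 9.10 in the IP, and Idh3g at 9.06 against 9.10 and 8.95. As deposited, other mitochondrial lists lay between the backgrounds. In them 21 of 74 mitochondrial ribosomal proteins, 7 of 24 import subunits and 11 of 37 mitochondrial solute carriers rose. After the second normalization 20, 5 and 8 rose, with 4, 2 and 2 lower. Their risen shares then exceeded both backgrounds (12.5% and 19.1%), though narrowly for the import subunits and solute carriers. Timm17a and Tomm22, channel and receptor subunits of the import machinery, rose by 2.59 and 2.51, and Slc25a18, a glutamate carrier, fell by 2.15. In glycolysis 4 of 18 rose (2 after quantile normalization again) and 1 fell. Slc2a3, a glucose transporter, rose by 1.79, and Ldhb, a lactate dehydrogenase subunit, fell by 1.19.

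Genes for moving proteins through membranes and between compartments also rose. Of 33 genes for protein entry into the endoplasmic reticulum, 18 rose and 0 fell, with replicate medians of 1.24 and 1.22, and with quantile normalization repeated the numbers were 14 and 1. Spcs3, a subunit of signal peptidase, was at 5.65 in IgG and at 9.81 and 9.84 in the IP. Magt1, of the oligosaccharyltransferase, was at 4.93 in IgG with differences of 4.06 and 3.94, and Ssr3, of the translocon-associated complex, at 5.70 against 8.87 and 9.08. The small channel subunit Sec61g was below IgG, at 6.50 and 6.48 against 6.96, and was not called. Of 30 COPI and COPII coat genes, which form the vesicles between that compartment and the Golgi, 17 rose (7 higher and 1 lower after the second normalization), led by the cargo receptor Tmed9 (3.17), the coat subunit Sec23a (2.37) and the receptor Lman1 (2.19). Of 21 importins and exportins 14 rose and 0 fell, and 6 rose after the second normalization. Kpna3 and Kpna4, importin adaptors, rose by 2.59 and 2.27, and Xpo7, an exportin prominent in erythroid cells, was at 11.12 in IgG and at 10.68 in both IP replicates. Among nucleoporins 6 of 18 rose, with Nup50 highest at 2.21, which is near the 32.5% of the better expressed genes, and 1 rose after the second normalization.

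Chaperones rose in 21 of 34 cases, with 0 fallen and replicate medians of 1.21 and 1.31. With the second normalization 7 rose and 1 fell, near the 19.1% of the better expressed genes. The kinase co-chaperone Cdc37 was at 4.94 in IgG and at 7.59 and 7.46 in the IP, the prefoldin subunit Pfdn2 at 4.43 against 6.85 and 6.90, and the chaperonin subunit Cct8 at 6.81 against 9.23 and 9.13. Dnaja1, a co-chaperone of the DnaJ type, lay below IgG in both replicates, by 0.83 and 1.01, and was not called. Dnaja1 was called lower after quantile normalization again and with centring. Chaperones of the list thus ran from -0.92 to 2.59.

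**Figure D4:**
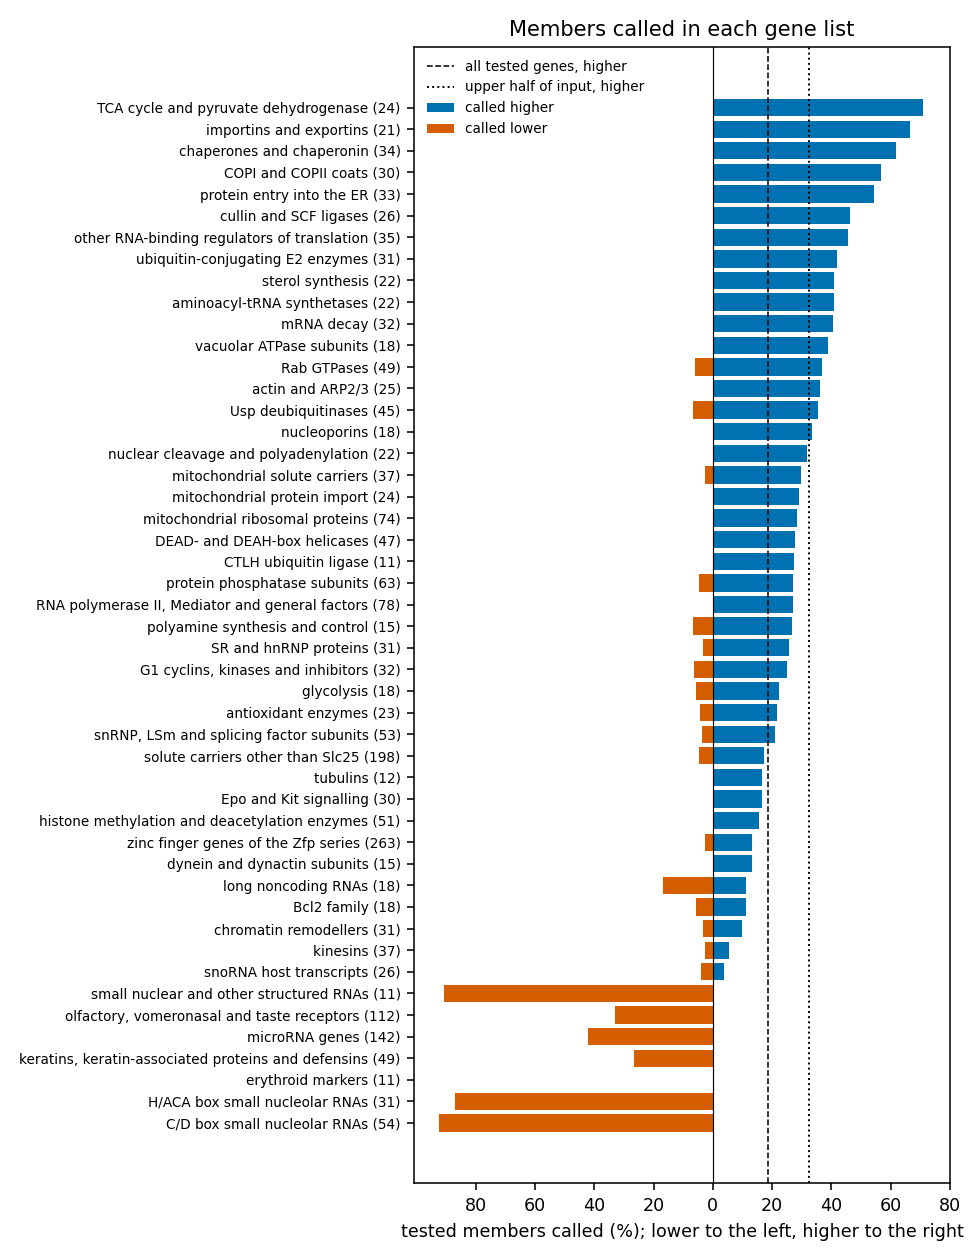
Share of tested members called higher (right) or lower (left) than IgG in each gene list with at least 11 tested members (number in brackets), with dashed and dotted lines at the 18.6% and 32.5% called higher among all tested genes and among those at or above the median input value. The tricarboxylic acid cycle list reaches 70.8%, the erythroid markers have no called member, and the C/D and H/ACA box small nucleolar RNAs reach 92.6% and 87.1% lower.

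Regulators of RNA itself rose in part. Of 35 other RNA-binding regulators of translation, 16 rose and 0 fell (11 and 0 after quantile normalization again), with replicate medians of 1.04 and 1.00. Lin28b, a blocker of let-7 processing that is typical of fetal blood cells, was at 4.90 in IgG and at 7.59 and 7.51 in the IP. G3bp1, a core protein of stress granules, was at 6.66 against 8.94 and 9.03, and Paip1, a partner of the poly(A)-binding protein, at 5.18 against 7.44 and 7.55. Rbm3, a cold-inducible RNA-binding protein, was not called, with differences of -0.36 and -0.32. In mRNA decay 13 of 32 rose and 0 fell (6 and 1 after the second normalization), including Lsm14a (2.34), a protein of processing bodies, and the decapping enzyme Dcp2 (2.19). The helicase of nonsense-mediated decay, Upf1, was below IgG by 0.51 and 0.54 and was not called. In nuclear cleavage and polyadenylation 7 of 22 rose, and among SR and hnRNP proteins 8 of 31 rose and 1 fell. As deposited, both lists were at or below the share of the better expressed genes. After the second normalization 5 rose and 1 fell in the former, and 3 rose and 3 fell in the latter. Srsf10 rose by 1.98 and Hnrnpc by 1.72. Of 47 DEAD- and DEAH-box helicases 13 rose, and of 53 snRNP, LSm and splicing subunits 11 rose and 2 fell, the latter being Snrpa, of the U1 particle, at -1.58, and Snrnp35, of the U11 particle, at -1.23. With quantile normalization repeated, 8 of the helicases rose and 1 fell, and 5 of the 53 rose and 5 fell.

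The ubiquitin system held several of the highest genes but not a uniform shift. Ubiquitin-conjugating enzymes rose in 13 of 31 cases, with replicate medians of 0.68 and 0.64, and 9 did so after quantile normalization again. Cullin and SCF ligase genes rose in 12 of 26 (6, with 1 lower, after it), led by Cul2, a cullin scaffold, at 4.01 in IgG and 7.06 and 7.14 in the IP. Fbxo9, a substrate receptor, was below IgG by 0.78 and 0.73 and was not called. In the CTLH ligase, a complex with a known role in erythroid enucleation and maturation, 3 of 11 rose. Gid4, its substrate receptor, was at 5.36 in IgG and at 9.35 and 9.42 in the IP, followed by Rmnd5a (1.49) and Mkln1 (1.13), which both lost their call after quantile normalization again (0.77 and 0.47), and Mkln1 did so with centring too (0.89). Wdr26 and Ranbp10 of the same complex were at 10.41 and 11.04 in IgG, with differences of 0.01 and -0.48. Usp deubiquitinases rose in 16 of 45 cases and fell in 3 (10 and 2 after the second normalization), from Usp46 at 2.27 to Usp17lc, of a family of near-identical copies, at -2.26.

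Polyamine genes spanned a wide range. Of 15, 4 rose and 1 fell. Sms, at the end of the pathway, had the highest difference of all tested genes, whereas Odc1, the first and rate-limiting enzyme, was at 7.35 in IgG and at 6.21 in both IP replicates and fell by 1.14. Among Rab GTPases 18 of 49 rose and 3 fell (11 and 3 after quantile normalization again). Rab27b, of secretory granules, was at 4.43 in IgG and at 7.55 and 7.24 in the IP, and Rab9, of late endosomes, at 5.57 against 8.28 and 8.17. Of 22 sterol synthesis genes 9 rose (5, with 1 lower, by the second normalization), with Cyp51, lanosterol demethylase, at 4.16 against 6.96 and 6.95. Fdps, farnesyl diphosphate synthase, just missed the fold rule in the other direction, at -1.07 and -0.99. It was called lower after quantile normalization again and with centring.

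Several lists matched or lay under the background. Zinc finger genes of the Zfp series rose in 35 of 263 cases (13.3%), solute carriers other than Slc25 in 34 of 198 (17.2%), chromatin remodellers in 3 of 31 and kinesins in 2 of 37. After the second normalization these numbers were 33, 20, 1 and 1. Kif5b, the heavy chain of conventional kinesin, rose by 1.81 and Kif23, of cytokinesis, by 1.10, a call that Kif23 lost after quantile normalization again (0.36) and with centring (0.85). Genes of Epo and Kit signalling, the pathways that drive erythroid survival and growth, rose in 5 of 30 cases (3 after quantile normalization again), among them the kinase Btk (2.36) and the phosphatase Ptpn11 (2.04). In the G1 group 8 of 32 rose and 2 fell (5 and 2 after it). Ccnd2 and Cdk6, which form a complex that opens the cell cycle, rose by 2.74 and 2.05, and Cks2, a cofactor of cyclin-dependent kinases, was at 7.50 in IgG and at 5.85 and 5.49 in the IP.

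Closely related proteins could lie at unlike distances from IgG. Ptp4a1 was at 5.13 in IgG and at 9.17 and 9.30 in the IP, and Ptp4a2 at 6.70 with differences of 2.81 and 2.80, while Ptp4a3 was at 8.54 against 8.35 and 8.48; all 3 are phosphatases of the same family. Csnk2a1, a catalytic subunit of casein kinase 2, rose by 4.12, and its partner gene Csnk2a2 had a difference of 0.83. The ubiquitin-conjugating enzymes Ube2d3 and Ube2d1 rose by 2.95 and 1.69, whereas Ube2d2a was at 8.13 in IgG and at 8.81 and 8.89 in the IP and was not called. Arf3 rose by 2.29 and Arf1 had a difference of -0.23, both being GTPases of the Golgi coat. Gnb1, a G protein subunit, rose by 1.68 and Gnb2 lay below IgG by 0.78 and 0.51. Ywhab, a 14-3-3 protein, rose by 1.40 and Ywhaz had the same difference of -0.43 in both replicates. By contrast the 3 catalytic subunits of protein phosphatase 1, Ppp1cb, Ppp1ca and Ppp1cc, all rose, by 1.73, 1.66 and 1.07. After quantile normalization again Ppp1cc (0.49) and Ywhab were no longer called, while Gnb2 and Ywhaz were called lower, and with centring Ppp1cc (0.83) lost its call too. In these families the members called and not called were not tested against each other. Where the mRNAs of a pair are alike in sequence, probes may read both, which would make their values uncertain.

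Erythroid markers were not called. Over 11 of them the mean value was 9.69 in IgG, 9.79 and 9.83 in the IP and 10.47 in input, and 0 of 11 rose or fell. Their median differences were 0.18 and 0.19, which turned to -0.23 after quantile normalization again and to -0.06 after centring. Tal1, a transcription factor of the lineage, was at 7.52 in IgG and at 7.96 and 8.09 in the IP, and Gata1, its master regulator, at 8.77 against 8.56 and 8.71. The markers were high on all 4 arrays, as the label of the cells calls for.

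Markers of other blood and liver cells were higher in the IP than in IgG in some short lists. The background shares were 18.6% and 32.5% risen as deposited, and 12.5% and 19.1% after quantile normalization again. As deposited, the megakaryocyte and neutrophil shares lay slightly above both, and the hepatocyte and macrophage shares between them. After the second normalization 1 of 8, 2 of 10, 1 of 7 and 2 of 7 rose in that order. Only the macrophage share then clearly exceeded both, and no list was tested against them. The mean over 8 megakaryocyte markers was 6.39 in input, 7.44 in IgG and 8.38 and 8.47 in the IP, and 3 of 8 rose, Vwf, Gp6 and Ppbp. The other 5 were not called, the lowest at 0.16. The list medians of 0.75 and 0.89 became 0.38 after quantile normalization again. Vwf, the von Willebrand factor, was at 6.09 in IgG and at 8.90 and 8.95 in the IP. Gp6, a collagen receptor of platelets, and Ppbp, a platelet chemokine, rose by 1.20 and 1.15 and were no longer called after quantile normalization again (0.76 and 0.68) or with centring (0.95 and 0.90). Over 10 neutrophil markers the mean was 6.11 in input, 6.74 in IgG and 7.74 and 7.75 in the IP, and 4 rose (2 after quantile normalization again and 2 with centring). Camp, a granule peptide, was at 3.38 in IgG and at 7.14 and 7.25 in the IP, and Ltf, lactoferrin, at 5.20 against 7.57 in both. The other 6 neutrophil markers were not called, the lowest at -0.08. The neutrophil list medians of 0.68 and 0.66 became 0.08 after quantile normalization again. Among hepatocyte markers 2 of 7 rose (1 after the second normalization), with Afp, the fetal plasma protein, at 4.86 against 7.09 and 7.23 and an input value of 3.93, while Ttr had a difference of 0.14 in both replicates. The mean over 10 hepatocyte markers was 3.96 in input, 4.64 in IgG and 5.23 and 5.22 in the IP. Macrophage markers rose in 2 of 7, Adgre1 and Csf1r, with a list mean of 4.73 in IgG and 5.01 and 5.12 in the IP. Of the 7, 3 lay below IgG in both replicates, the list medians were -0.12 and 0.00, and C1qa, of the complement system, and Vcam1, an adhesion protein, were not called, at -0.67 and -0.37. Endothelial and lymphoid markers rose in 1 of 5 (Pecam1) and 1 of 3 (Ptprc, which lost its call after the second normalization and with centring), with list means of 4.17 and 4.28 in IgG that were 4.17 and 4.11 in IP replicate 1. Tubb1, the tubulin of platelets, was at 4.87 in IgG against 8.41 and 8.86 in the IP. Slc6a4, the serotonin transporter that platelets carry, was at 4.89 against 7.33 and 7.63. Neither gene belongs to these marker lists. The labels do not say whether the IgG sample and the IP replicates shared a cell preparation. A difference in the cells present and a difference in recovery with the antibody therefore cannot be told apart. The part of other cell types in the differences was not tested.

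Small nucleolar RNAs, which guide RNA modification, fell below IgG almost as a class. The medians of the 85 tested were 6.93 in input, 9.20 in IgG and 5.95 in the IP. IgG thus lay further above input than the IP lay below it. Of 54 C/D box members, which guide methylation, 50 fell and 0 rose, with replicate medians of -3.05 and -2.96. Of 31 H/ACA box members, which guide pseudouridylation, 27 fell and 0 rose, with medians of -2.91 and -2.98. After quantile normalization again 47 and 26 fell. Snora81 was at 9.80 in IgG and at 4.23 and 4.57 in the IP, with 5.48 in input, a fall of 5.41 (SE 0.18, limma adjusted p = 3.19e-05). Snord110 had differences of -4.60 and -5.30, with an IP value of 3.30 in replicate 2, and Snord68 at 8.40 against 2.97 and 3.98. IgG was far above input in these 3, and both IP values were below input. The exceptions included Snord123 and Snord4a, with differences of -0.12 and -0.23.

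Other small and structured RNAs followed. Of 7 Cajal body RNAs, which guide the modification of spliceosomal RNAs, 5 fell, with Scarna6 at 11.40 in IgG and at 7.47 and 7.17 in the IP. Of 11 small nuclear and other structured RNAs 10 fell. Rnu3a, a U3 RNA of ribosome assembly, was at 8.81 against 4.95 and 5.33, and Rprl2, a gene of the RNase P RNA family, at 10.96 against 7.88 and 7.89. Rn7sk, the RNA that holds the transcription elongation factor P-TEFb inactive, had the smallest difference of that list, with 13.36 in IgG and differences of -0.49 and -0.36, and was not called. Copies of such RNAs are alike, so their probe sets may share signal.

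The genes that enclose small nucleolar RNAs were set beside the small RNAs. By RefSeq gene spans, 59 tested small nucleolar RNAs lay inside exactly 1 tested gene, and these host genes numbered 44. Of the 59 small RNAs 53 fell, with a median difference of -3.04. Of the 44 hosts 9 rose, 4 fell and 32 lay above IgG on average, with a median of 0.57. Of the 6956 better expressed genes 32.5% rose and 5484 (78.8%) lay above IgG on average, so the hosts did not exceed that background upward. Downward, 2.65% of those genes and 6.24% of all tested genes fell, smaller shares than the 4 of 44 hosts. In a curated list of host transcripts 1 of 26 rose and 1 fell, with replicate medians of 0.23 and 0.33 and a median of -0.19 after quantile normalization again. In 57 of 59 pairs the small RNA had the lower difference, the others being Snord14a in Rps13 and Snord73a in Rps3a1. Snora3 was at 10.01 in IgG and at 7.69 and 7.87 in the IP, while its host Rpl27a, of the large ribosomal subunit, was at 6.06 against 9.59 in both. Snord87 fell by 3.17 while Snhg6, a noncoding host, rose by 2.82, and Snora15 fell by 3.66 while Cct6a, a chaperonin subunit, rose by 1.55, a call lost after quantile normalization again (0.92). Snord47 and its host Gas5, a noncoding RNA, both fell, by 4.39 and 1.15. Ribosomal protein genes have many near-identical pseudogenes, so the values of Rpl27a, Rps13 and Rps3a1 are uncertain.

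**Figure D5:**
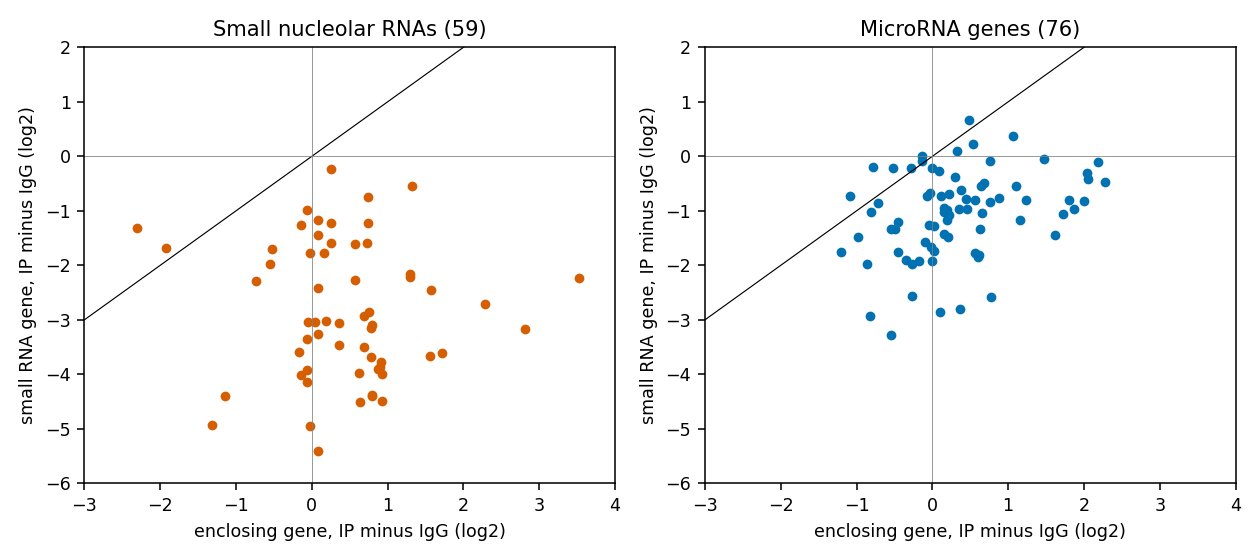
Difference from IgG (mean of the IP replicates, log2) of small nucleolar RNAs (left, 59) and microRNA genes (right, 76) against that of the 1 tested gene enclosing each; the line marks equal differences. In 57 of 59 and 69 of 76 pairs the small RNA lies below the line.

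MicroRNA genes fell in 60 of 142 tested cases and rose in 0, with replicate medians of -1.05 and -0.98, and 73 fell after quantile normalization again. Their median values were 4.91 in input, 5.81 in IgG and 4.77 in the IP, so that the IP lay nearer to input than IgG did. Of the 142, 131 had an input value that reached the filter value, and 53 of those fell. Mir15a, shown above, was at 9.02 in IgG and at 6.12 and 5.34 in the IP, with 8.23 in input. Mir16-1, which has the same seed, was at 5.43 against 4.11 in both replicates. Mir142 was at 8.39 against 5.56 and 4.97, and Mir680-1 at 9.03 against 6.38 and 5.59. Mir187 was at 7.72 against 4.32 and 4.58. The erythroid Mir451a was at 7.06 in IgG and at 6.29 and 6.18 in the IP, and Mir144 at 5.06 against 4.57 and 4.63, and neither was called. Whether the probes read the mature RNA, the hairpin or the primary transcript is not given in the sources used here. Of the 76 microRNA genes inside exactly 1 tested gene 29 fell, and of their 73 hosts 14 rose and 2 fell. The medians were -0.97 and 0.21. The share of risen hosts was near the 18.6% of all tested genes and below the 32.5% of the better expressed ones.

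Genes of other tissues were measured too. Olfactory, vomeronasal and taste receptors, which erythroid cells are not known to use, fell in 37 of 112 tested cases and rose in 0, with medians of -0.82 and -0.84. Only 112 of the 1406 on the array passed the filter on low values. Because the filter used the mean of all 4 arrays, a gene high in IgG alone could pass it. Olfr59 was at 6.30 in IgG, 2.57 in input and 3.77 and 3.41 in the IP. Of the 112 receptors, 82 had an input value that reached the filter value, and 24 of those fell. Keratins, keratin-associated proteins and defensins fell in 13 of 49 (10 of the 40 with such an input value). Variable segments of immunoglobulin and T cell receptor genes fell in 27 of 56 (22 of 49) and joining segments in 8 of 22 (6 of 19). For these classes the counts describe the members that passed, and nothing is read from them. Olfr1303 was at 8.05 in IgG and at 5.14 and 4.76 in the IP, and Ighv2-3 at 7.80 against 4.95 and 5.24. Input lay below IgG in both, at 5.67 and 3.73. Outside the small RNA classes, Sft2d1, a vesicle traffic protein, was lowest by the replicate nearer to IgG, at 10.93 in IgG, 6.38 in input and 6.49 and 5.83 in the IP. Cma2 was lower by the mean of the replicates, at -5.31 against -4.77. Next was Trbj2-1, a T cell receptor joining segment, at 8.84 against 5.30 and 5.52. H2ac11, a replication-dependent histone, was at 6.80 in IgG and at 4.36 and 4.47 in the IP. Its input value of 7.64 lay above IgG.

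Long noncoding RNAs were divided. Among 18 listed, 2 rose and 3 fell (2 and 6 after quantile normalization again). Tug1 was at 7.47 in IgG and rose by 2.03 and 1.96 in the 2 replicates, and Norad, which binds Pumilio proteins, at 4.44 against 5.82 and 6.04. Kcnq1ot1, a nuclear RNA that silences imprinted genes, was at 7.19 against 5.73 and 5.42, and Pvt1 at 7.17 against 5.19 and 5.64. Malat1, a nuclear RNA, was at 12.24 in IgG and at 12.13 and 12.03 in the IP and was not called. Over all 671 tested genes that RefSeq classes as long noncoding, 25 rose and 85 fell (3.73% and 12.7%). Their median input value was 4.46, which lies in bin 3 of the input value. In that bin 2.88% of all tested genes rose and 10.3% fell, so the class was close to genes of its level. Of the 671, 590 had an input value that reached the filter value, and 63 of those fell.

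The 9274 genes under the filter added little upward difference. By size alone, 18 of them exceeded IgG by 2-fold or more in both replicates, and 539 were below it by as much. Their median value was 3.26 in IgG and 2.93 in the IP.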

How the data were processed

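RNA was measured on 4 Affymetrix arrays, from biotinylated cRNA per the labels' protocols. The authors deposited log2 values, 1 per probe set and array, and the submitters' processing notes name RMA and affy; versions, build and probe definition are not given in the sources used here. Although RMA usually equalises distributions, the IgG array's SD was 1.74 against 2.05 to 2.13, and no source used here says whether it was normalized with the others. RMA summarises probes, which can give equal values on different arrays. Groups came from the sample titles. Symbols (23185 of 25206 probe sets) came from the array's annotation table.

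Genes were tested where their 4-array mean was at least 3.844, the 40th percentile over genes with a symbol (13911 genes). The fit was limma 3.58.1 in R 4.3.3 (lmFit, eBayes with trend) on IP and IgG. The 3032 genes with equal IP values (within 1e-09) were given no residual degree of freedom. On simulated data of 13911 genes, this recovered 50 of 50 genes at each fold size. It called 0 of 13711 unchanged genes, but the fold rule left almost no room for such calls at the simulated spread. The limma test alone passed 18 of them. With ties kept, 22 to 39 of 50 were recovered, and the limma test alone passed 1626 unchanged genes. Here and below, the fit with ties kept was also made without trend. The simulation gave every gene and array, IgG included, the same spread, taken from the IP arrays. The labels call the IP samples biological replicates.

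The members, lists and tests were chosen with earlier results of these data known, so no list is independent evidence. No set test was run. Named genes were the 30 highest and 20 lowest called genes (small RNA classes apart), the 15 highest with an IgG value at or above its 75th percentile, the 20 with the highest IP mean, the 3 highest and 2 lowest of each list, the 5 with the widest replicate gap, the closely related families and Cpeb4, without clone-named and predicted genes. Genes named as examples beyond these, host genes and 5 of the microRNAs were chosen after their values were seen. The alternatives were the filter, quantile normalization again, centring, ties, the eBayes options, the thresholds and each IP replicate left out.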

Additional observations from a re-analysis of the deposited data

Results flagged for a closer look

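Probe sets without a gene symbol, which no comparison above used, also held signal above IgG. Of 2021 such probe sets, 130 (6.43%) exceeded IgG by 2-fold or more in each IP replicate and 175 (8.66%) lay as far below it. By the same rule without a test, 11.2% of all probe sets with a symbol were higher and 6.07% lower. Their genes were not identified here.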

How the results depend on the processing

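The fit had 1 residual degree of freedom, and IgG, the only array of its kind, could not be left out. No paired analysis was possible because the IgG array carries no replicate number that could pair it with an IP array. Without IP replicate 1 or 2, by size alone, 2765 to 2837 genes were higher and 1060 to 1093 lower. At 1.5-fold 4166 genes were higher and 2164 lower, at 4-fold 574 and 119, and by limma alone 5163 and 2677. The number lower was 1407 with no filter, 402 with a 60th percentile filter, 1548 with arrays centred on the median and 541 with ties kept; the number higher was 2606, 2506, 1868 and 2131. Centring shifted every difference by -0.246. It also called 2 named genes lower that were not called as deposited, Dnaja1 and Fdps. Of 180 genes named in the text, quantile normalization again ended the call of 13 (Bcl2l13, Cct6a, Cma2, Gp6, Kif23, Mkln1, Ppbp, Ppp1cc, Ptprc, Rmnd5a, Rps13, Snord73a and Ywhab) and called 8 others lower (Dnaja1, Fbxo9, Fdps, Gnb2, Mir451a, Sec61g, Upf1 and Ywhaz); centring ended that of 8 (Gp6, Kif23, Mkln1, Pcbp2, Ppbp, Ppp1cc, Ptbp3 and Ptprc) and ties kept that of 29, among them Sft2d1, Mir15a, Mir142, Snord68 and Snord110. The sign of uncalled genes turned for Fth1 (0.12), Malat1 (0.012), Mdh2 (-0.43), Snord123 (0.23), Tal1 (-0.23) and Wdr26 (-0.18) with quantile normalization again, and for Mdh2 (-0.15), Slc4a1 (-0.046), Ssxb2 (-0.022), Ttr (-0.10) and Wdr26 (-0.23) with centring. Without 1 IP replicate, Arf1 ranged from -0.47 to 0.0, Idh3g from -0.11 to 0.042 and Ssxb2 from -0.94 to 1.39. The causes were not tested.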

Other observations

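Further gene groups were measured that the comparisons above did not describe. Their backgrounds are again the 18.6% risen of all tested genes and the 32.5% of the better expressed genes. After quantile normalization again these shares were 12.5% and 19.1%. Aminoacyl-tRNA synthetases, which charge tRNAs, rose over IgG in 9 of 22 cases, but in 1 after quantile normalization again, and Qars, for glutamine, was at 6.59 in IgG and at 8.45 and 8.61 in the IP. Subunits of the vacuolar ATPase, which acidifies lysosomes, rose in 7 of 18 (4 after it), among them Atp6v0a2 by 2.08. Of 25 actin and ARP2/3 genes 9 rose (2 after quantile normalization again), with Arpc2 at 9.47 against 11.21 and 11.13. Among 63 protein phosphatase subunits 17 rose and 3 fell (12 and 4 after it), from Ppp3r1, the regulatory subunit of calcineurin, at 3.35 to Ppp1r1a, an inhibitor of protein phosphatase 1, at -1.53. RNA polymerase II, Mediator and general factors rose in 21 of 78 cases and fell in 0 (12 and 2 after it). Gtf2h1, of the factor TFIIH, was at 6.86 against 8.98 and 9.16. The phosphatase and polymerase lists, with 27.0% and 26.9% risen, lay between the backgrounds as deposited.

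Histone methylation and deacetylation enzymes rose in 8 of 51 cases (4 after quantile normalization again), below the share among all tested genes, with the deacetylases Hdac1 and Hdac2 at 2.01 and 1.91. Antioxidant enzymes rose in 5 of 23 (21.7%), between the backgrounds, and fell in 1. Sod1, superoxide dismutase, was at 2.47 in IgG and at 5.35 and 4.78 in the IP, and Gclc, the first enzyme of glutathione synthesis, was at 11.01 against 9.76 and 9.78. In the dynein and dynactin list 2 of 15 rose (13.3%), below the share among all tested genes. Both were light chains, Dynlt3, at 3.49 against 7.65 and 8.01, and Dynlrb1, at 6.67 against 9.17 and 9.22. In the Bcl2 family, which controls cell death, 2 of 18 rose (11.1%), also below the share among all tested genes. They were Bak1 by 1.63 and Bcl2l13 by 1.44 (0.74 after quantile normalization again, not called). Bcl2l12 fell by 1.41.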
